A study of Homo sapiens with 4 samples.

Results

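The complement system was examined in U87MG, an established human glioblastoma cell line, through 9 of its genes: the components CFB, C3, C1R and C1S, and the inhibitors CFI, SERPING1, CD46, CD55 and CD59. The members were found by name, as every probe set (a group of short probes that reports one gene) whose only gene symbol in the platform annotation is one of these 9. This gave 11 probe sets of the 19158 with a single symbol, and 9 genes of 18404. CFB had 3 probe sets and each of the other 8 genes had 1. The members were chosen by their log2 levels in control cells and their differences after silencing, with the difference of one CFB probe set already known, so all member values below are descriptions and carry no test.

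Total RNA was hybridized to 4 Affymetrix Human Gene 1.0 ST arrays, 2 from U87MG cells transfected with a siRNA against CASP2 and 2 from U87MG cells transfected with a control siRNA, which the labels call biological replicates. The comparison asks which genes follow the expression of caspase-2, a protease of the apoptosis pathway. All cells were grown in serum-containing DMEM and, in the methods, received their oligos with a cationic lipid reagent, so transfection itself is common to both groups. The data come from 1 cell line and 1 silenced gene. The labels give no sequence or time for the oligos and do not say whether the replicates were separate transfections. Values are log2 values from Robust Multi-Array Average (RMA), and a change is the mean of the CASP2 siRNA arrays minus the mean of the control siRNA arrays. Standard errors (SE) and 95% intervals are from limma and cover only the spread between these arrays.

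The silenced gene followed its labels. CASP2 stood at 8.79 and 8.52 on the CASP2 siRNA arrays, against 10.74 and 10.69 on the control siRNA arrays, a log2 change of -2.06 (SE 0.13, limma adjusted p = 0.9999 over 32321 probe sets). The CASP2 siRNA arrays differed from each other more than the controls did, with a standard deviation of the difference between arrays of 0.348 for CASP2 siRNA and 0.205 for control siRNA. Of 8 glial and glioblastoma markers, 5 lay above the upper quartile of all probe sets on every array, among them VIM and CD44, while GFAP lay just above the median and S100B below the lower quartile. No hepatocyte, microglia, endothelial or neuron marker lay above the upper quartile on all arrays (0 of 7, 6, 5 and 5 probe sets). The neuron marker SNAP25 came close, at the 72.9 percentile on the control arrays, above the glial markers GFAP, NES and S100B. The neuron marker TUBB3 was not measured by a single-symbol probe set. Hepatocytes are the main cell type of complement production in the body. The log2 values of their 6 genes, each by its brightest probe set, added up to 30.5 and 31.8 with the CASP2 siRNA. On both control siRNA arrays they added up to 30.8.

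Complement is a cascade of plasma proteins that tags and lyses cells. C1R and C1S are the proteases of the C1 complex, which start the classical pathway, C3 is the protein on which all pathways meet, and CFB provides the protease of the alternative pathway convertase that cleaves more C3. Host cells are protected by soluble inhibitors, such as the C1 inhibitor SERPING1 and the C3b-cleaving protease CFI, and by the membrane proteins CD46, CD55 and CD59. Tumour cells, glioma cells included, are known to carry these membrane inhibitors. Interferon-gamma and inflammatory cytokines are known inducers of CFB, C3, C1R, C1S and SERPING1 in many cell types.

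Upstream sequences are shown for CFB, C1R and CD59 because they are the members whose promoter table entry holds a match to the GAS motif, an element of interferon-gamma responsive promoters, and because CFB carries the largest change of the members. They are the 250 bases before a RefSeq transcript start, 5′ to 3′ on the strand of the gene, from RefSeq on GRCh38.p14. CFB lies at chr6:31945845-31946094 on the plus strand, the downstream of 2 C1R starts at chr12:7091894-7092143 on the minus strand, and the most upstream of 4 CD59 starts at chr11:33736480-33736729 on the minus strand. Capitals mark matches to GAS (TTCNNNGAA), to the core of the interferon-stimulated response element, ISRE (GAAA, any 2 bases, GAAA), or to a TATA box (TATAAA).
CFB: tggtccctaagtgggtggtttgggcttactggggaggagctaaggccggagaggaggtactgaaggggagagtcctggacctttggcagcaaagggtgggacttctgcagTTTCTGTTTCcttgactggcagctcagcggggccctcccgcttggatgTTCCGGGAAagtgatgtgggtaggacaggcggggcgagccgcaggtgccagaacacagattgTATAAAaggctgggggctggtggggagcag
C1R: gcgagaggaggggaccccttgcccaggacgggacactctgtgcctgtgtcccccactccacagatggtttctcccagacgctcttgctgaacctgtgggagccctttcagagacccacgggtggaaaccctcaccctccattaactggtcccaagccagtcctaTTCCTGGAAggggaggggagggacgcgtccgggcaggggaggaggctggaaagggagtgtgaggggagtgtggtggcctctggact
CD59: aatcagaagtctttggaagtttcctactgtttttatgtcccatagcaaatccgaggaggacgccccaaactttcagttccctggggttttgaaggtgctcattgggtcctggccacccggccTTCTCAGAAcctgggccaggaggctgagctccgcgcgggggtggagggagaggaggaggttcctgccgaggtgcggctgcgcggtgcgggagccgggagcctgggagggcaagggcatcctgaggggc

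Both strands were searched over the same 250 bases of 34943 RefSeq promoters. GAS was found in 6.56% of them, the ISRE core in 3.02% and the TATA box in 10.8%. The CFB sequence held all 3, with the ISRE core at 140 to 131 bases, GAS at 92 to 84 bases and the TATA box at 30 to 25 bases before the start. All 3 together were held by 32 promoters (0.0916%). This combination is the one that CFB held, and no other combination was counted. The ISRE match reads on the minus strand, and the GAS pattern is its own reverse complement. Of these 3, the C1R and CD59 entries shown held GAS alone, another CD59 entry that overlaps the one shown held the same GAS match, and the other C1R entry, the other 2 CD59 entries, CFI, CD46 and CD55 held none. The GC box (GGGCGG), which 42.5% of the promoters hold, was found in the entries of CD46 and CD55 and in 1 of the 4 CD59 entries, not the one shown. C3, C1S and SERPING1 were not analysed here in this respect. A match is a stretch of letters, and no factor binding was measured.

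Over the members there was no common direction. The changes of 6 probe sets lay above 0 and those of 5 below, and the median over the 9 genes, each by its brightest probe set, was 0.10, against -0.00089 over all 18404 genes. Without CASP2 siRNA replicate 1 this median was -0.0034, and without control siRNA replicate 1 it was 0.015. The groups overlapped for 9 of the 11 probe sets. One CFB probe set lay lower on both CASP2 siRNA arrays than on both controls, as did 15.1% of all probe sets, and CD46 lay higher, as did 14.5%. The study's limits were over 1.5-fold and p under 0.05 before adjustment. Its p came from its own t-test, whereas these limits are applied here to the limma p unless the t-test is named. By them 1 member probe set was lower and 0 were higher, beside 0.362% and 0.331% of all probe sets. Since that contrast chose the members, nothing is read from these counts. Adjusted over all probe sets by limma, 0 members and 0% of all probe sets passed, while 1 member had an unadjusted p under 0.05, beside 3.03% of all probe sets. In the methods' t-test, 0 members passed, beside 0.309% of all probe sets before adjustment and 0% after it.

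**Figure D1:**
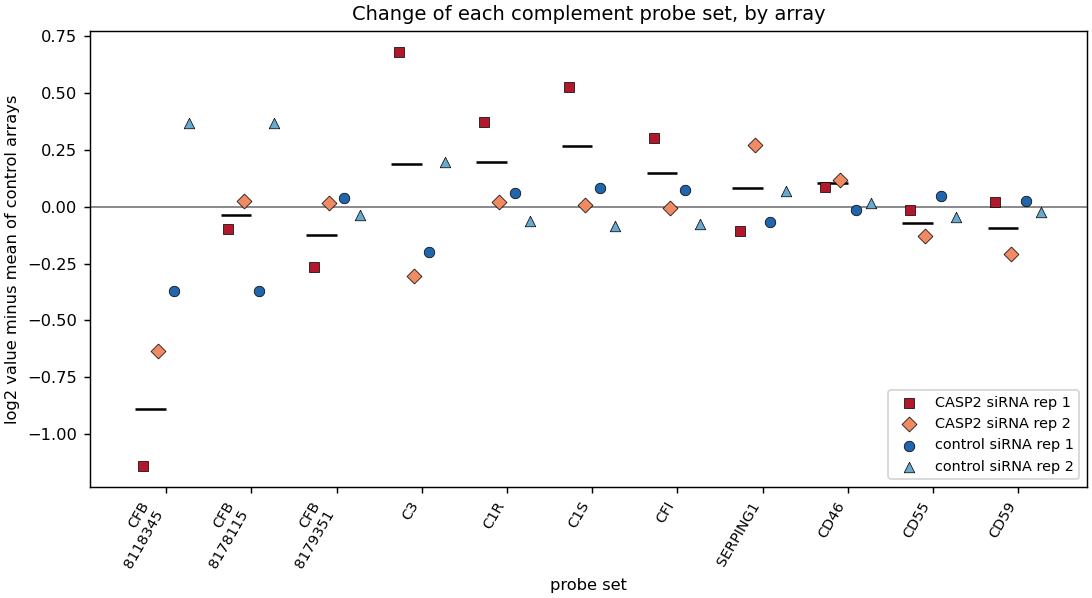
Deviation of every array from the control siRNA mean in log2 units (y axis) for the 11 member probe sets (x axis). Squares and diamonds are the CASP2 siRNA arrays, circles and triangles the control siRNA arrays, and short black lines the mean of the CASP2 siRNA arrays; CFB probe set 8118345 lies at -0.89 and the other CFB probe sets near 0, while for C3, C1R, C1S and CFI the highest point is CASP2 siRNA replicate 1.

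CFB, complement factor B, was the member with the largest change, but in 1 of its 3 probe sets only. Probe set 8118345 had log2 values of 5.57 and 6.08 with the CASP2 siRNA, against 6.34 and 7.08 with the control siRNA. Both silenced arrays thus lay below both controls, with a log2 change of -0.89 (SE 0.31) that amounts to 1.85-fold, and the 95% interval ran between -1.72 and -0.054. The nearest arrays of the groups, CASP2 siRNA replicate 2 and control siRNA replicate 1, were closer to each other than the arrays within either group. Its change ranged from -1.26 to -0.52 as each array was left out in turn, and the gene no longer passed the study's limits without CASP2 siRNA replicate 1, without control siRNA replicate 2, or by the methods' t-test.

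The other CFB probe sets did not show this difference. Probe set 8178115 stood at 5.64 and 5.77 with the CASP2 siRNA and at 5.37 and 6.11 with the control siRNA. Its silenced arrays fell between its controls, and the log2 change was -0.036 (SE 0.27, interval -0.74 to 0.67). Probe set 8179351 stood at 5.99 and 6.28 with the CASP2 siRNA and at 6.30 and 6.22 with the control siRNA. The groups overlapped here as well, and the log2 change was -0.12 (SE 0.13, interval -0.48 to 0.23). The platform annotation lists the same 6 transcript accessions for all 3 probe sets and gives no position, so which of them belongs to the main chromosome 6 and which to an alternate haplotype cannot be said here. All 3 lay near or below the median of their arrays. In RNA from whole cultures, fewer cells that express a gene and less RNA per cell cannot be told apart.

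**Figure D2:**
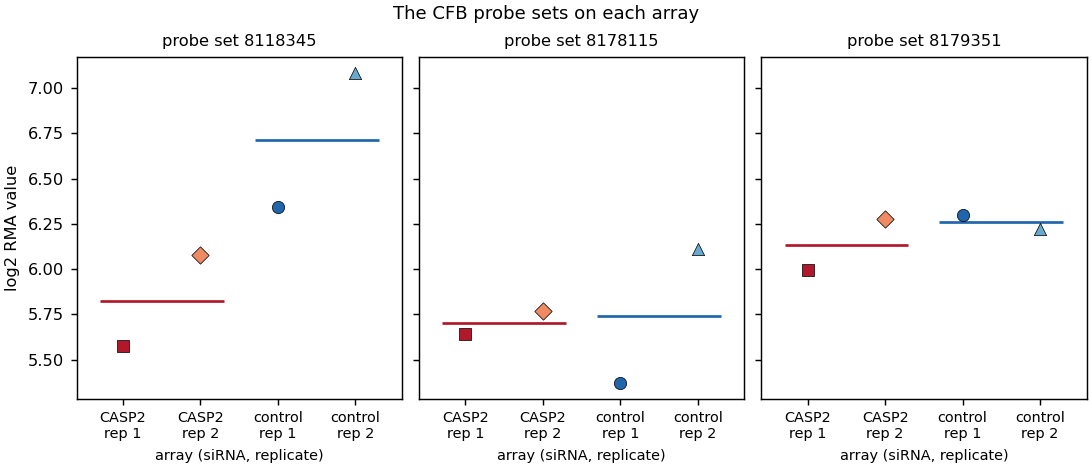
Log2 RMA value (y axis) of each CFB probe set on each array (x axis), CASP2 siRNA arrays left and control siRNA arrays right in each panel, with lines at the group means. Probe set 8118345 has a mean of 5.83 with the CASP2 siRNA against 6.71 with the control siRNA, whereas the means of 8178115 are 5.70 and 5.74 and those of 8179351 are 6.14 and 6.26 in the same order.

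The CFB probe sets also disagreed between the control arrays alone, which the rule did not contrast. This was not so for 8118345 and 8178115, whose changes lay farthest apart. Control siRNA replicate 1 lay 0.74 below replicate 2 in both 8118345 and 8178115, but 0.075 above it in 8179351. The first of these differences exceeded in size those of 98.8% of all probe sets. The log2 value of 8118345 minus that of 8178115 was -0.067 and 0.31 with the CASP2 siRNA, and 0.97 and 0.98 with the control siRNA. The pair 8118345 and 8178115 thus stood nearly the same distance apart on both control arrays and closer on both silenced arrays. The log2 value of 8118345 minus that of 8179351 was -0.42 and -0.20 with the CASP2 siRNA, and 0.046 and 0.86 with the control siRNA, so here the control arrays differed. The narrowing of the first pair restates the -0.85 between their 2 changes, and the change of 8118345 was already known. It was seen afterwards and was not tested.

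CFB lies in the major histocompatibility complex (MHC), a region in which people differ much and for which several reference haplotypes exist, near C2, ZBTB12, NELFE and SKIC2. The spread among probe sets was therefore compared over every gene with more than 1 single-symbol probe set. The largest minus the smallest change within a gene was 0.85 for CFB, at the 98.7 percentile of these genes. Its median was 0.18 over 52 MHC genes, taken here as those from GABBR1 to KIFC1, and 0.12 over the 585 others. Among genes with exactly 3 probe sets, as CFB has, the medians were 0.39 (9 MHC genes) and 0.20 (47 others).

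The same measure was taken between the 2 control arrays, where no silencing is involved. The largest minus the smallest difference between the control arrays was 0.82 for CFB. It was set by 8179351 (0.075), since 8118345 and 8178115 both stood at -0.74, so it is not the pair behind the 0.85. The median of this measure was 0.37 over the MHC genes and 0.14 over the others. The probe sets of MHC genes thus differed among themselves within the control group too, and by more than those of other genes at the median. Genes are not independent replicates and these medians were not tested. The part of haplotype-specific probes or shared probe sequence in the CFB values was not tested.

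**Figure D3:**
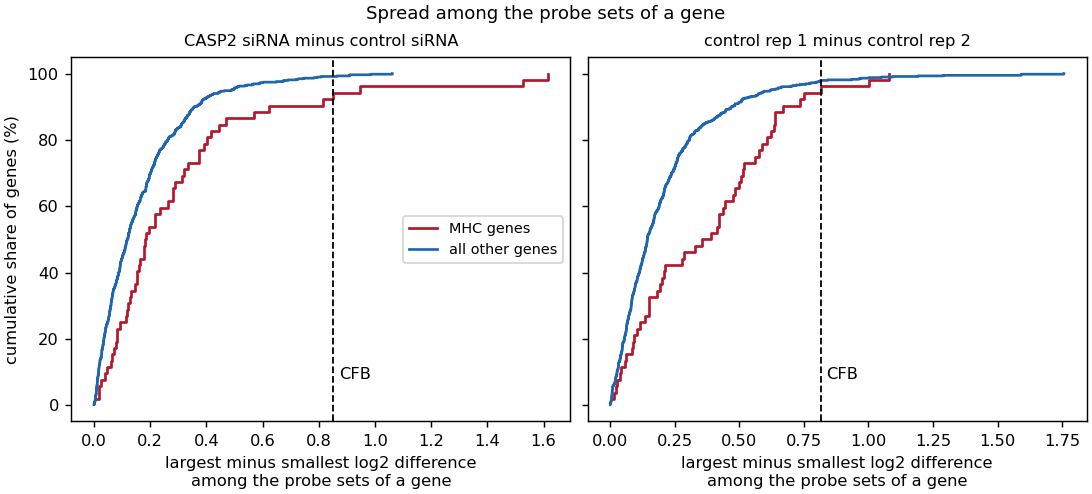
Cumulative share of genes (y axis, %) by the largest minus the smallest log2 difference among the probe sets of a gene (x axis), for 52 MHC genes (red) and 585 other genes (blue) with more than 1 probe set. The left panel is CASP2 siRNA minus control siRNA and the right panel control replicate 1 minus control replicate 2. The dashed line marks CFB, at 0.85 on the left and 0.82 on the right, set by different pairs of its probe sets.

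Of the MHC class III genes around CFB, 9 were measured apart from CFB, by 13 probe sets. The brightest probe set of 3 of these genes lay above 0 and that of 6 below. None of the 13 passed the adjusted limma test (0% of all probe sets), and 4 had an unadjusted p under 0.05 (3.03% of all probe sets). By the study's limits 2, those of SKIC2 and WHR1, were higher (0.331% of all probe sets). SKIC2, an RNA helicase of the cytoplasmic exosome, stood in one probe set at 6.23 and 7.16 with the CASP2 siRNA and at 5.83 and 4.85 with the control siRNA, and its other probe set had a log2 change of -0.26. WHR1, earlier named STK19, had a log2 change of 0.62 (SE 0.20) in one probe set and of 0.00043 in the other. C2, a near neighbour of CFB that provides the protease of the classical convertase, had a log2 change of -0.27 (SE 0.093) in a probe set below the lower quartile of every array and of 0.016 (SE 0.097) in the other.

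C3, the central component, was the most variable member between the silenced arrays. Its log2 value was 8.03 and 7.04 with the CASP2 siRNA, against 7.15 and 7.54 with the control siRNA. The silenced arrays were thus the highest and the lowest of the 4, and the log2 change of 0.19 (SE 0.37, interval -0.79 to 1.16) covers both directions. Without CASP2 siRNA replicate 1 it was -0.31 and without CASP2 siRNA replicate 2 it was 0.68, with which C3 passed the study's limits.

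C1R and C1S, the classical pathway proteases, lie side by side on chromosome 12. C1R stood at 8.70 and 8.35 with the CASP2 siRNA and at 8.39 and 8.27 with the control siRNA, a log2 change of 0.20 (SE 0.15, interval -0.21 to 0.60). C1S stood at 7.32 and 6.80 with the CASP2 siRNA and at 6.88 and 6.71 with the control siRNA, a log2 change of 0.27 (SE 0.20, interval -0.27 to 0.81). In both genes CASP2 siRNA replicate 1 was the highest array and replicate 2 lay between the controls. Without replicate 1 the log2 changes were 0.020 for C1R and 0.0075 for C1S.

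CFI, the soluble protease that degrades C3b, showed the same order at a level below the array median. Its log2 value was 6.04 and 5.73 with the CASP2 siRNA, against 5.81 and 5.66 with the control siRNA, a log2 change of 0.15 (SE 0.14, interval -0.24 to 0.54). Over C3, C1R, C1S and CFI, CASP2 siRNA replicate 1 lay a median of 0.45 above the control mean and replicate 2 lay 0.0021 above it. These 4 genes were put together after their values were seen, because replicate 1 was their highest array. Over the 11 member probe sets, silenced replicate 1 was higher than replicate 2 in 6. The difference between the silenced arrays ranked at 98.9% (C3), 94.5% (C1S), 88.6% (C1R) and 86.1% (CFI) of all probe sets, in the direction of a higher replicate 1. Over all probe sets replicate 1 was higher in 53.4%, and over those above the array median in 63.3%. The median of replicate 1 minus replicate 2 was 0.064 over probe sets above the array median, where C3, C1R and C1S lay, and -0.047 over those below it, where CFI lay, against 0.31 to 0.99 in these 4 genes. The positive changes of these 4 genes thus rest on a single silenced array.

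SERPING1, the inhibitor of C1R and C1S, differed from them. It stood at 5.37 and 5.75 with the CASP2 siRNA and at 5.41 and 5.55 with the control siRNA, below the median on every array. Here the silenced arrays were the lowest and the highest of the 4, in the order opposite to that of C3, and the log2 change was 0.083 (SE 0.16, interval -0.35 to 0.51).

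The membrane inhibitors were the steadiest members, and all of them lay above the upper quartile of every array. CD46, the cofactor by which CFI cleaves C3b on host cells, had log2 values of 9.94 and 9.97 with the CASP2 siRNA and 9.83 and 9.86 with the control siRNA. Both silenced arrays lay above both controls, by a log2 change of 0.10 (SE 0.090, interval -0.14 to 0.34), and leaving out 1 array kept it between 0.088 and 0.12. CD55, which speeds the decay of the C3 convertases, stood at 9.51 and 9.39 with the CASP2 siRNA and at 9.56 and 9.47 with the control siRNA. Its groups overlapped and its log2 change was -0.071 (SE 0.10, interval -0.34 to 0.20).

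CD59, which blocks the membrane attack complex, lay at the 97.4 percentile of all probe sets on the control arrays. Its log2 value was 11.98 and 11.75 with the CASP2 siRNA, against 11.98 and 11.94 with the control siRNA. Only CASP2 siRNA replicate 2 lay apart, and the log2 change was -0.093 (SE 0.12, interval -0.41 to 0.22). On no silenced array did CD46, CD55 or CD59 depart from its control mean by more than 0.21 on the log2 scale.

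**Figure D4:**
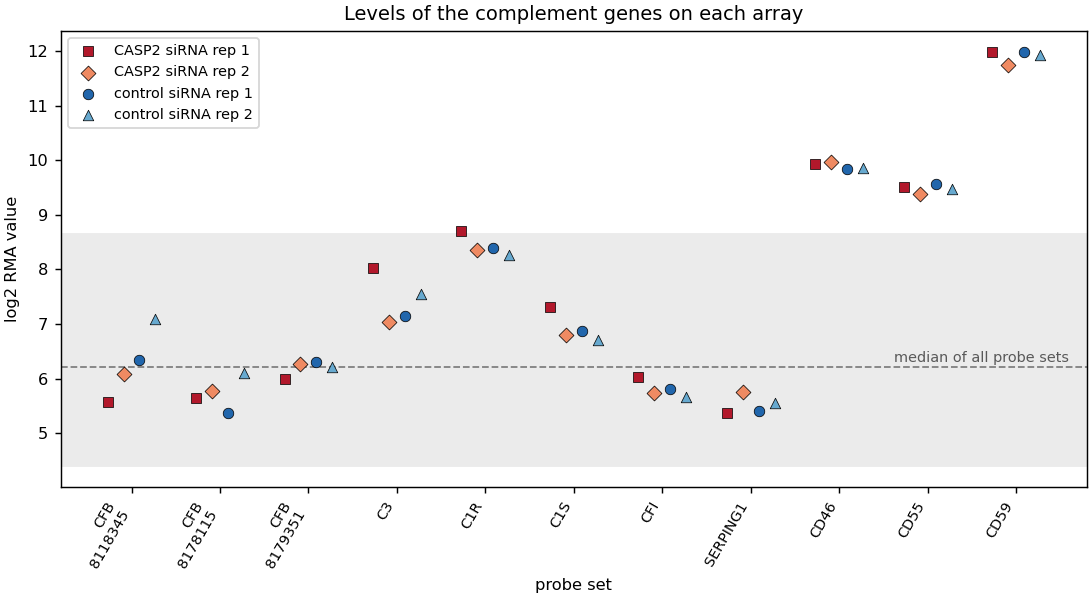
Log2 RMA value (y axis) of the 11 member probe sets (x axis) on the CASP2 siRNA arrays (squares, diamonds) and the control siRNA arrays (circles, triangles). The grey band spans the lower to the upper quartile of all probe sets and the dashed line is their median; CD46, CD55 and CD59 lie above the band on all arrays, while the probe sets of CFB, CFI and SERPING1 lie around or below the median.

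The rest of the complement system was read from lists of classical, lectin, alternative and terminal pathway genes, inhibitors and receptors. Of 49 further genes, 43 were measured by a single-symbol probe set, in 45 probe sets, and the others were not analysed here. Their median log2 change was -0.0013, with 21 genes above 0 and 22 below. None of the 45 passed the adjusted limma test, beside 0% of all probe sets, and 2 had an unadjusted p under 0.05, beside 3.03%. By the methods' t-test 0 had one, beside 0.309% of all probe sets, and none passed the study's limits in either direction. The groups did not overlap in 6 lower and 4 higher of the 45 probe sets, shares below the 15.1% and 14.5% of all probe sets. Of the 8 genes of the lectin pathway, which recognises sugars on microbes, 5 lay above 0 and 3 below, within -0.13 and 0.18. Of the 8 measured soluble inhibitors 3 lay above 0 and 5 below, and the 3 further membrane inhibitors, CR1, CSMD1 and SUSD4, lay within -0.033 and 0.023.

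The smallest p-values were those of C5AR1, the C5a receptor, C2 and C5, the source of C5a and of the membrane attack complex. C5AR1 stood at 6.46 and 6.41 with the CASP2 siRNA and at 6.21 and 6.10 with the control siRNA, a log2 change of 0.29 (SE 0.097, limma adjusted p = 0.9999). C5 stood at 5.93 and 5.25 with the CASP2 siRNA and at 6.22 and 6.11 with the control siRNA, a log2 change of -0.57 (SE 0.25, limma adjusted p = 0.9999) that rested mainly on CASP2 siRNA replicate 2. Only CLU, the soluble inhibitor clusterin (log2 change -0.0013, SE 0.091), and C1QBP, a mitochondrial protein that can bind C1q (-0.069, SE 0.090), lay above the upper quartile on all arrays. The chains of C1q, C1QA, C1QB and C1QC, had log2 changes of 0.10, 0.014 and -0.12. Of the 7 terminal pathway genes, 5 had a probe set below the lower quartile on every array.

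**Figure D5:**
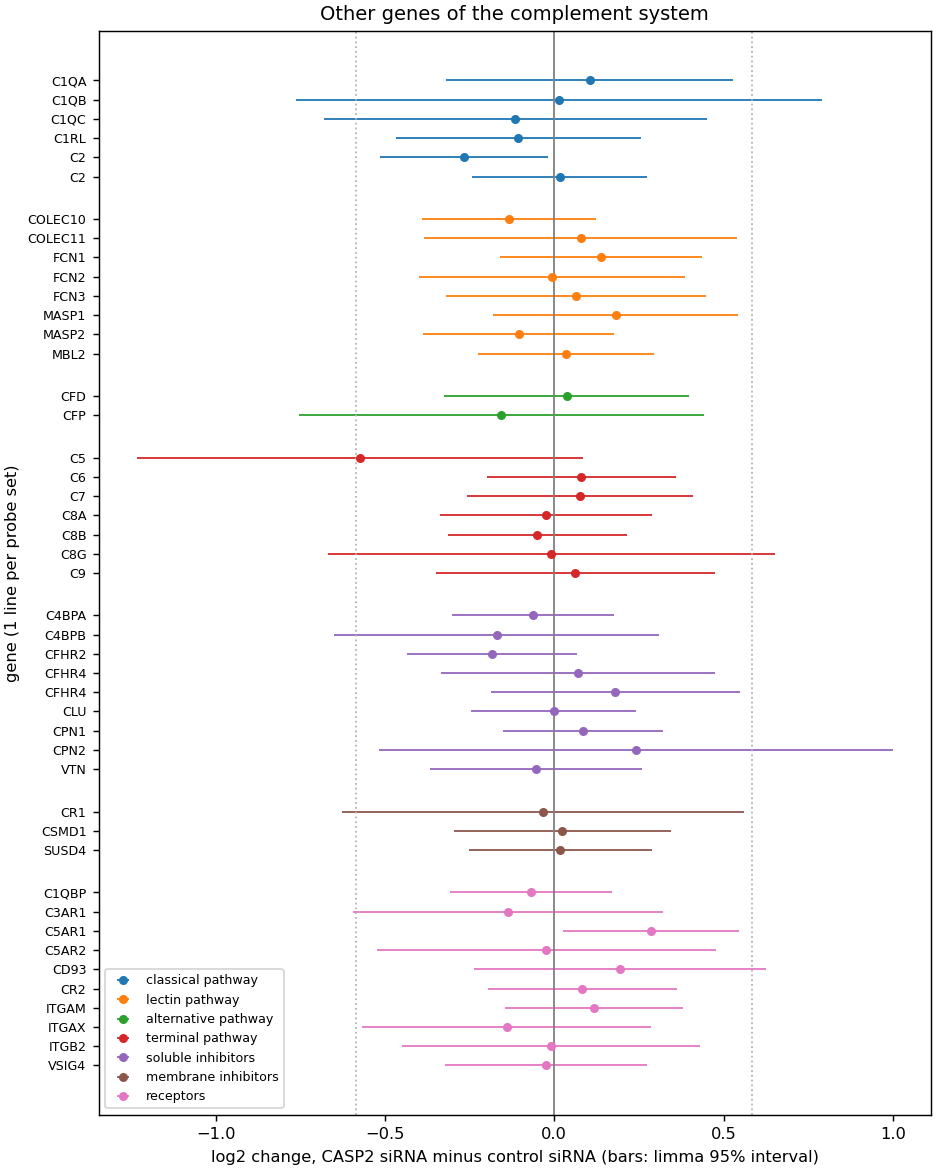
Log2 change, CASP2 siRNA minus control siRNA (x axis), for 45 probe sets of 43 complement genes outside the members (y axis), coloured by role, with limma 95% intervals as bars. Dotted lines mark a 1.5-fold change; no point lies beyond them, and C5 at -0.57 is the farthest from 0.

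Of 14 regulators of complement transcription, 12 were measured, and 8 lay above the upper quartile on all arrays. The 3 with the smallest p were STAT3, a factor of the acute phase response (0.10, SE 0.097), NFKB1, an NF-kB subunit (-0.099, SE 0.092), and IRF1, a factor induced by interferon-gamma (0.099, SE 0.093). None passed the adjusted limma test, each with an adjusted p of 0.9999, beside 0% of all probe sets. None had an unadjusted limma p under 0.05, beside 3.03% of all probe sets. The median change of the 12 was 0.050, with 9 above 0.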

How the data were processed

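The authors deposited 1 table of log2 values, which they made with Robust Multi-Array Average (RMA, version not given in the sources used here), which corrects background, equalizes probe distributions between arrays and summarizes probes. All 4 columns were mapped to samples through their labels. Probe sets were named from the platform annotation, with 19128 of 19158 single symbols updated by gene ID through RefSeq (GRCh38.p14); 1388 probe sets with several symbols and 11775 with none were tested but not named.

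Each of 32321 probe sets was fitted with limma 3.58.1 (lmFit, eBayes) in R 4.3.3, and two-sided p-values were adjusted by Benjamini-Hochberg over the whole table. The fit had 2 residual and 2.47 prior degrees of freedom. With 2 arrays a group, an exact two-sided permutation test cannot give a p below 0.333, and the number of arrays limits the precision. The members and lists were chosen with earlier results of these data known. Named were the members, CASP2, the 3 genes with the smallest p in the further complement genes, in the regulators and in the MHC neighbours, further complement genes past the thresholds or above the upper quartile, and the 5 probe sets nearest in pattern to CFB 8118345; C1QA, C1QB, C1QC, CR1, CSMD1, SUSD4 and the markers were named after their values were seen. The methods' t-test used a pooled SD raised to its median. Fits were tested on simulated data. Other alternatives were eBayes with trend and robust options, median centring, quantile normalization, no dim probe sets, linear means, the mean over a gene's probe sets, a replicate block and each array left out.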

Additional observations from a re-analysis of the deposited data

How the results depend on the processing

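The limits are few arrays, overlapping groups and, for CFB, CFI and SERPING1, levels near or below the array median. Of the alternatives that keep all arrays, median centring, quantile normalization and linear means can move the log2 change of a probe set. Under these 3 no member probe set changed sign or moved by more than 0.069. The mean over a gene's probe sets changes the value of CFB alone among the members. It pools CFB changes of -0.89, -0.036 and -0.12, and the median over the members stayed at 0.10. The others alter only the spread or the probe sets tested, and CFI, SERPING1 and CFB 8178115 and 8179351 were not among those left without dim probe sets. Leaving out 1 array changed the sign of 6 of the 11 member probe sets, those of C3, CFI, SERPING1, CD59 and CFB 8178115 and 8179351, and kept that of C1R, C1S, CD46, CD55 and CFB 8118345. The median over the members ranged from -0.0034 to 0.12, the count of lower members from 0 to 1, and that of higher members from 0 to 1, the 1 being C3 without CASP2 siRNA replicate 2. The methods' t-test gave 0 lower members in place of 1. Over all probe sets the study's limits gave 117 lower and 107 higher probe sets, against 37 and 35 by that t-test, 33 and 22 of 16160 without dim probe sets, and 157 to 592 and 118 to 414 as each array was left out. The CASP2 change ranged from -2.20 to -1.93 with 1 array left out. Under the alternatives that keep all arrays, 0 further complement genes passed the adjusted test. So did 0 of all probe sets, CASP2 included, so this count would be 0 for any list of genes.

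The labels do not say whether arrays with the same replicate number were prepared together. Replicate 1 minus replicate 2 was -0.50 with the CASP2 siRNA and -0.74 with the control siRNA in CFB 8118345. In C3 it was 0.99 and -0.39 in the same order. The correlation across probe sets of the difference between replicates 1 and 2 was 0.020 between the groups, and with the replicate number as a block, which cannot move a log2 change in this balanced design (CASP2 -2.06), 1 member was lower, 0 were higher, and all probe sets gave 160 lower and 142 higher.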

Other observations

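The 5 single-symbol probe sets nearest in pattern to CFB 8118345, by the root mean square difference of their deviations from the control mean over the 4 arrays, were those of BDP1 (0.198), LINC01356 (0.287), SMIM14 (0.333), ALPP (0.336) and KAT2B (0.337). BDP1, a part of the initiation factor TFIIIB, has 2 single-symbol probe sets. The near one stood at 2.85 and 3.03 with the CASP2 siRNA and at 3.72 and 4.38 with the control siRNA. It lay below the lower quartile of every array. Like CFB 8118345, this probe set was lowest on CASP2 siRNA replicate 1 and highest on control siRNA replicate 2. Its log2 change was -1.11, against -0.051 in the other BDP1 probe set. KAT2B, a histone acetyltransferase, stood at 8.79 and 8.65 with the CASP2 siRNA and at 9.66 and 9.73 with the control siRNA. ALPP, the placental alkaline phosphatase, has near-identical paralogs whose RNA its probes may also read. Its near probe set had overlapping groups and a log2 change of -0.90, against 0.0054 in its other probe set. The near probe sets of the other 4 genes were lower on both silenced arrays. This nearness was chosen over 4 arrays and is a description.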
